A study of Homo sapiens with 9 samples.

Results

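The promoters of axon guidance ligands and receptors were examined for binding of YY1, a zinc finger transcription factor that acts at many promoters. A YY1 binding site (peak) was included when the deposited annotation placed it within 2000 bp of a transcription start site (TSS) of a gene whose symbol names a class 3 to 7 semaphorin, a plexin, an ephrin, an Eph receptor, a Slit, a Robo, a netrin or a UNC5 receptor. The rule took 81 of the 23002 peaks in the table, or 81 of its 15384 promoter peaks, and they carried 61 gene symbols. There were 23 semaphorin, 15 plexin, 13 ephrin, 13 Eph receptor, 3 netrin, 5 UNC5, 4 Slit and 5 Robo peaks, so that 43 lay at ligand genes and 38 at receptor genes. Of the 61 symbols, 48 had 1 peak and 13 had several, and 3 symbols (EFNA4-EFNA3, PLXNB3-AS1 and SEMA6A-AS2) name a readthrough or antisense transcript instead of the coding gene.

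YY1 chromatin immunoprecipitation and sequencing had been performed in SK-N-MC cells, which the labels call neuroblastoma cells of WT genotype. This established human tumour line is known to carry the EWSR1-FLI1 fusion of Ewing family tumours. HttQ89 cells overexpressed huntingtin residues 1 to 550 with an expanded stretch of 89 glutamines, and HttQ23 cells overexpressed the same fragment with an unexpanded stretch of 23 glutamines. Both came from plasmids delivered with Lipofectamine 2000, and each group had 3 libraries labelled as biological replicates. The plasmids encoded the fragment fused to EGFP, and every cell kept its own huntingtin genes. The comparison asked whether YY1 occupied its targets differently in cells with expanded huntingtin. The values are reads per peak that the authors scaled to sequencing depth, called normalised reads here. They come from bulk cultures, so fewer bound cells and less binding per cell cannot be told apart. The table holds no expression, so the labelled cell line could not be checked against its markers.

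Growing axons are steered by cues that attract or repel the growth cone. Semaphorins act through plexins, often with a neuropilin as co-receptor, ephrins signal to Eph receptor tyrosine kinases on touching cells, Slits repel axons through Robo receptors, and netrins attract through DCC or repel through UNC5 receptors. Several of these genes also act outside the nervous system, in vessel growth, immunity and tumours. YY1 is known to recognise a short DNA element with the letters ATGGCG at its core, and the CCAT on the other strand of that core is shared by a second, degenerate description of the element.

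The sequences under the peaks were read from GRCh38. The core ATGGCG was found on either strand in 6 of 81 guidance peaks (7.41%), against 4155 of 15384 promoter peaks (27.0%). The longer form AAGATGGCG, which contains the core, was found in 0 of 81, against 649 promoter peaks (4.22%). The form CCATNTT, which every AAGATGGCG also holds on its other strand, was found in 6 of 81 (7.41%), against 2602 promoter peaks (16.9%). Guidance peaks were never among the 500 strongest peaks, so the shares were also taken over the 13969 promoter peaks no stronger than the strongest guidance peak, a set chosen after the first shares were seen. There the core was held by 23.5%, AAGATGGCG by 2.36% and CCATNTT by 13.4%. A match describes letters in a window and is not a measured site, and no test was made of these shares.

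The 6 core matches are shown because they are all that the guidance peaks hold. Each line gives the gene strand, 5′ to 3′, with the core letters or their complement in capitals.
PLXND1: acgcccgagatCGCCATccgctccctgg
PLXNB2, peak at the main start: cgcggcccgggCGCCATcgagccttggc
PLXNB2, peak far inside the gene: gagggagtggaCGCCATcccggtga
EPHA4: cctgtctgcgcCGCCATtggccgcgggc
EFNA3: cggctccggggATGGCGgcggctccgct
SLIT1: gtgagggcaccATGGCGctgactcccgg
In 4 of these the core lies on the strand opposite to the gene, and in EFNA3 and SLIT1 it lies on the gene strand. In EFNA3 (letters at chr1:155078942-155078947, plus strand) and in SLIT1 (chr10:97185669-97185674, minus strand), the first letters of the core are the start codon of the coding sequence in the reference transcript. The match in PLXND1 (chr3:129605921-129605926, gene on the minus strand) and that in the inner PLXNB2 peak (chr22:50278971-50278976, gene on the minus strand) are also in coding exons. The other PLXNB2 match (chr22:50307577-50307582) is in the 5′ UTR. That of EPHA4 (chr2:221572392-221572397, gene on the minus strand) lies outside the reference transcript. EPHA4 is the one guidance peak that held both the core and CCATNTT, and the other CCATNTT matches were at an inner PLXNB2 peak, EPHA10, EFNA5, PLXNA4 and EPHA3.

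**Figure D1:**
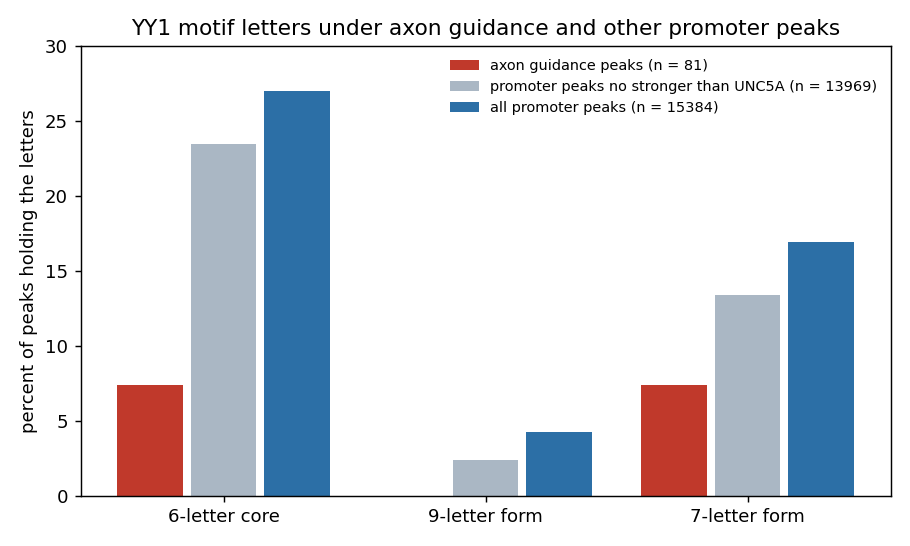
Percent of peaks (y axis, from 0) whose GRCh38 sequence holds the 6-letter core, the 9-letter form or the 7-letter degenerate form on either strand. Bars are the 81 guidance peaks, the 13969 promoter peaks no stronger than UNC5A and all 15384 promoter peaks, and the guidance bars are lower for each form (7.41% against 27.0% of all promoter peaks for the core).

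Stretches of 3 of the peaks that the results below turn on are shown as well. They hold no core match, like most guidance peaks, and are rich in CpG, as are the guidance peaks as a whole. The middle of the UNC5A peak, the strongest guidance peak, is given with each CpG in capitals. Beside it are the middles of the EPHB6 peak and of 1 of the 3 ROBO3 peaks, at which the groups of libraries did not overlap.
UNC5A: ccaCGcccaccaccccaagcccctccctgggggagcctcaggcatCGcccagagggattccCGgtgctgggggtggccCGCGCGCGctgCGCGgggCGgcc
EPHB6: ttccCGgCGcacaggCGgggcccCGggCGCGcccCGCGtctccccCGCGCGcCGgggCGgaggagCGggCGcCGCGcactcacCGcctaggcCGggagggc
ROBO3: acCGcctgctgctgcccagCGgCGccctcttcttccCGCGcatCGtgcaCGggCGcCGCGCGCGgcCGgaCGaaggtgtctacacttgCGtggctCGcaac
All 3 genes lie on the plus strand. The stretches are chr5:176810300-176810400 for UNC5A, chr7:142854878-142854978 for EPHB6 and chr11:124868982-124869082 for ROBO3. They hold 10, 19 and 16 CpG dinucleotides in that order, with a G+C content of 79.2%, 86.1% and 72.3%. Those of UNC5A and EPHB6 lie upstream of the reference TSS, while the ROBO3 stretch begins 3550 bp downstream of it. Over all 81 guidance peaks the median G+C content was 72.8%, against 71.3% over all promoter peaks, and the ratio of observed to expected CpG was 0.848, against 0.863.

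The guidance peaks were 401 bp wide, the smallest width in the whole table, where peaks reached 789 bp. A wider peak can hold more motif letters or starts, and the shares were not adjusted for width. A TSS of the annotated transcript fell inside 52 of the 81 guidance peaks (64.2%), against 72.8% of all promoter peaks. The rule accepts any annotated transcript, and many guidance genes have several starts. Of 78 guidance peaks whose gene has a MANE transcript (the reference transcript agreed between RefSeq and Ensembl), 35 overlapped its start and 17 lay more than 2000 bp from it. The ROBO1 peak was the most distant of the inner ones, at an alternative start 748947 bp into the MANE transcript, and 1 SEMA6D peak was centred at position −532916 bp from the MANE start, far upstream. No guidance peak had the MANE start of another coding gene within 1000 bp.

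YY1 signal at guidance promoters was moderate. The mean over the 6 libraries had a median of 57.2 normalised reads over the 81 peaks, against 61.3 over all promoter peaks, and ranged between 8.12 at EPHA3 and 196 at UNC5A. The strongest promoter peak in the table reached 3713. UNC5A stood at percentile 90.8 of promoter peaks, and the median guidance peak at percentile 47.7. By family the median mean level was 68.8 normalised reads for ephrins, 54.0 for Eph receptors, 50.5 for semaphorins and 33.9 for plexins. It was 91.9 for netrins, 58.9 for UNC5 receptors, 74.8 for Slits and 39.5 for Robos, families of 3 to 5 peaks each.

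**Figure D2:**
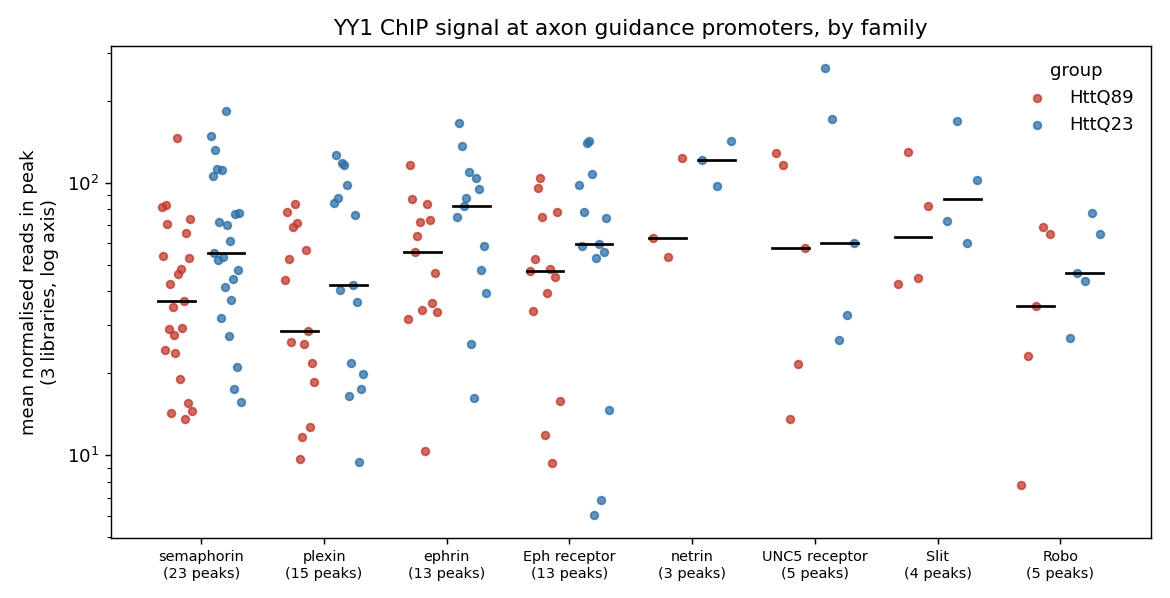
Mean normalised reads of each of the 81 guidance peaks over 3 libraries (y axis, log scale), HttQ89 left of HttQ23 within each family. Each point is a peak and each black bar the median of the family in that group; the HttQ89 bar is the lower one in all 8 families.

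The 6 libraries differed from each other across the whole table. Recovered reads within the peaks numbered 927910, 1012558 and 2344649 in HttQ89 replicates 1, 2 and 3. In HttQ23 replicates 1, 2 and 3 they numbered 1943927, 1415890 and 2089917. HttQ89 replicate 1 held 0 at 16.2% of all promoter peaks, against 0.969% to 5.20% in the other libraries. The guidance peaks shared this. Their summed signal was 2250, 3435 and 6712 normalised reads in HttQ89 replicates 1, 2 and 3, against 7120, 5786 and 5168 in HttQ23. The sum was thus low in HttQ89 replicates 1 and 2, while HttQ89 replicate 3 lay inside the HttQ23 range. As a share of each library's signal summed over all peaks, the guidance peaks took 0.235%, 0.343% and 0.316% in HttQ89. In HttQ23 they took 0.345%, 0.385% and 0.282%, and these groups overlapped.

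Peaks above 0 in all 6 libraries were tested, which kept 63 of the 81 guidance peaks (77.8%) and 76.7% of all promoter peaks. The tested guidance peaks were weaker, with a median mean of 65.5 normalised reads, against 81.2 over tested promoter peaks. Of the 18 guidance peaks that were not tested, 11 were at 0 only in HttQ89 replicate 1. These were peaks of SEMA4B, SEMA5A, SEMA6B, SEMA6C, SEMA6D, PLXNB1, SLIT2, SLIT3 and UNC5D and 2 inner PLXNB2 peaks, and their HttQ23 values lay between 1.06 and 146 normalised reads. A count of 0 in HttQ89 replicate 1 allows up to 3.09 normalised reads (3 reads, counting error only). This bound assumes that no input reads had been subtracted, which is not stated. The SLIT3 peak at its MANE start, for one, had 0, 78.1 and 167 normalised reads in HttQ89, against 92.3, 115 and 101 in HttQ23. The HttQ89 libraries lay on both sides of the HttQ23 values there. The other 7 untested peaks were weak, with means of 8.12 to 20.1 normalised reads, and were at 0 in at least 1 library other than HttQ89 replicate 1. They belonged to EPHA3, EPHA8, EPHA10, UNC5B, EFNA4, PLXNB2 and PLXNB3-AS1.

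No guidance peak passed an adjusted p of 0.05 in HttQ89 against HttQ23 (limma, p-values adjusted by Benjamini-Hochberg for 14698 tested peaks, lowest adjusted p among guidance peaks 0.818). No peak in the table did either, a background of 0%. At an unadjusted limma p under 0.05, 6 guidance peaks were lower and 0 higher in HttQ89, against backgrounds of 4.02% lower and 0.204% higher. edgeR and DESeq2 on the recovered reads also called 0 peaks. At an unadjusted p under 0.05, edgeR had 1 guidance peak lower and 0 higher, against backgrounds of 0.796% and 0.122%, and DESeq2 had 0 in either direction, against backgrounds of 0.578% lower and 1.25% higher. All 3 HttQ89 libraries lay below all 3 HttQ23 libraries at 4 guidance peaks and above them at 0, against backgrounds of 4.27% and 0.537%. The smallest two-sided p of an exact permutation test of 3 against 3 libraries is 0.1, so this test could not pass 0.05 at any peak.

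The fitted change was negative at 60 of the 63 tested guidance peaks (95.2%), against 82.8% of all tested peaks and 85.5% of tested promoter peaks. These signs are those of mean logs, not of mean values. At EPHB2 the fit was negative though the mean was 77.9 normalised reads in HttQ89, against 74.5 in HttQ23. At SEMA6A-AS2 it was positive though the mean was 14.5 in HttQ89, against 15.7 in HttQ23. The median log2 fold change was −0.61 at guidance peaks, −0.51 at promoter peaks and −0.50 at all tested peaks, on the log2(value + 1) scale. Adding 1 shrinks differences between weak values, but 1 very low library weighs more in a mean of logs than in a mean of values. With edgeR on the recovered reads the median was −0.47 at guidance peaks and −0.40 at promoter peaks. The limma medians moved with the scaling of the libraries. When each library was centred on its own median, the median moved to 0.04 over all tested peaks and to −0.07 over guidance peaks, of which 37 of 63 were then negative. Without HttQ89 replicate 1 the guidance median was −0.26 and the promoter median −0.25, and without HttQ89 replicate 3 they were −0.96 and −0.88. Ligand peaks had a median of −0.61 (32 of 35 negative) and receptor peaks of −0.59 (28 of 28 negative). After centring, 21 of 35 ligand peaks and 16 of 28 receptor peaks were negative. The family median turned to 0.05 for plexins and to 0.01 for ephrins, while those of the other families lay between −0.43 (netrins) and −0.10 (Eph and UNC5 receptors). This turn depended on the scaling. With quantile normalisation, TMM and DESeq2 in that order, the medians were 0.03, 0.005 and −0.09 for plexins and −0.02, −0.04 and −0.04 for ephrins.

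**Figure D3:**
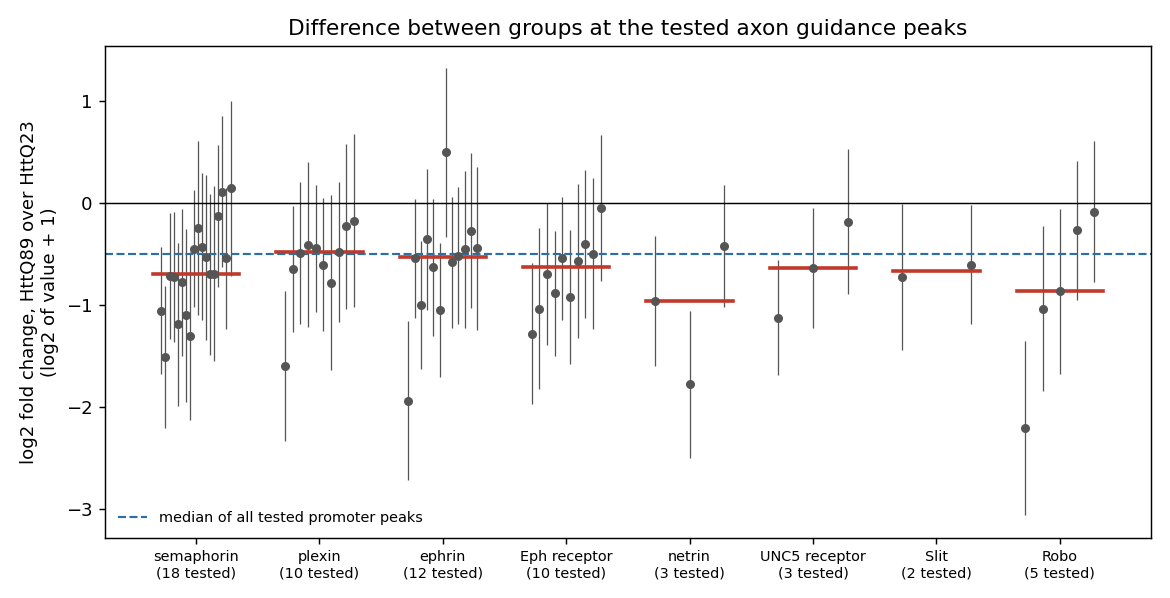
Log2 fold change of HttQ89 over HttQ23 (y axis) at each of the 63 tested guidance peaks, by family. Points are peaks with their limma standard errors, red bars are family medians and the dashed line is the median of all tested promoter peaks (−0.51). At this scaling 3 points and no family median lie above 0. After median centring the medians of plexins and ephrins do, but with DESeq2 scaling neither does.

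The libraries of HttQ89 contributed unequally. Relative to the HttQ23 mean, the median log2 difference over the tested guidance peaks was −1.25, −0.64 and 0.15 in HttQ89 replicates 1, 2 and 3, against −0.92, −0.75 and 0.29 over all tested promoter peaks. In HttQ89 replicate 1 the guidance peaks thus lay lower than promoter peaks as a whole, and in replicate 2 they lay higher. HttQ89 replicate 1 was the lowest of the 6 libraries at 42 of the 63 guidance peaks (66.7%), against 50.2% of tested promoter peaks. In that library ligand peaks stood at −1.43 and receptor peaks at −1.06. HttQ89 replicate 3 was below the HttQ23 mean at 25 of 63 guidance peaks (39.7%), against 25.5% of tested promoter peaks. No test was made of these differences from other promoters, and the sets were not matched for peak strength, which was lower at guidance peaks. The values are scaled to depth, with 1 read worth 0.876 to 1.06 normalised reads, and the part of depth in the differences was not tested.

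**Figure D4:**
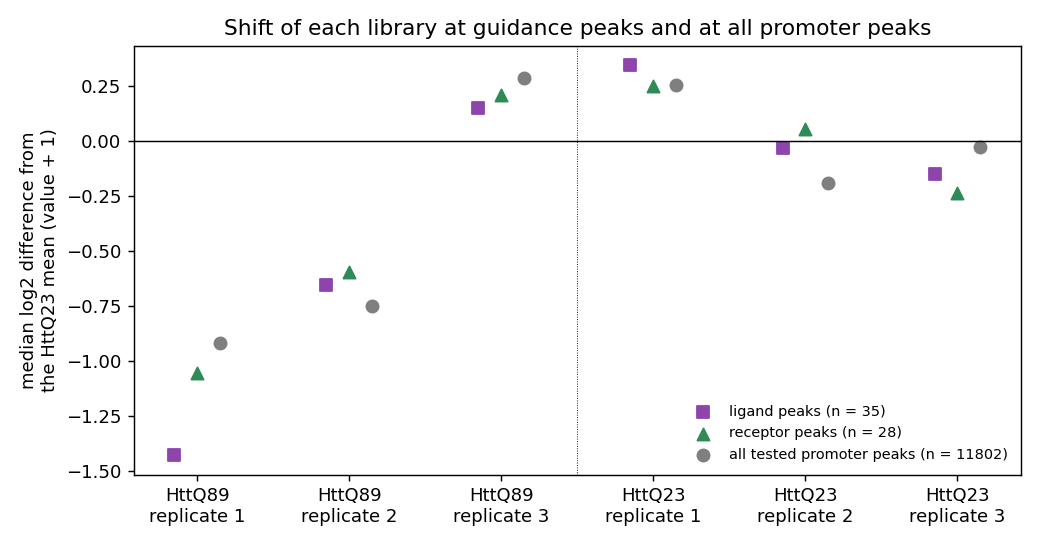
Median log2 difference of each library from the HttQ23 mean (y axis, value + 1) over tested ligand peaks, receptor peaks and all promoter peaks. HttQ89 replicates 1 and 2 lie below 0 for every set and HttQ89 replicate 3 lies above 0, so the 3 HttQ89 libraries do not move together.

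Among ligands, the semaphorins are secreted or membrane-bound cues that mostly repel. Of 18 tested semaphorin peaks 16 had a negative fold change, with a median of −0.70, against 11 of 18 after centring. SEMA3F, a secreted ligand of neuropilin-2, had 54.6, 83.0 and 110 normalised reads in HttQ89 replicates 1, 2 and 3, against 148, 129 and 118 in HttQ23. Its groups did not overlap, with HttQ89 replicate 3 close under the lowest HttQ23 library. The log2 fold change was −0.72 ± 0.61 (SE, adjusted limma p = 0.818, exact permutation p = 0.1). The peak (chr3:50154936-50155336) overlaps the MANE start.

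SEMA3C, another secreted semaphorin, had the strongest peak of the family. It held 117, 82.0 and 239 normalised reads in HttQ89, against 229, 158 and 164 in HttQ23, and HttQ89 replicate 3 was the highest of the 6. The fold change was −0.45 ± 0.57 on the log2 scale and turned positive with median centring, TMM and DESeq2 scaling, though not with quantile normalisation. The transmembrane semaphorin SEMA5B had 7.21, 62.3 and 91.4 normalised reads in HttQ89, against 132, 115 and 71.8 in HttQ23. HttQ89 replicate 1 was far below every other library there, while HttQ89 replicate 3 lay within the HttQ23 range (log2 fold change −1.51 ± 0.69, adjusted limma p = 0.818, exact permutation p = 0.2).

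SEMA4B, SEMA6B and SEMA6D had several peaks each, which differed within a gene. SEMA6B, a transmembrane ligand of class A plexins, had 4 peaks, none of them within 2000 bp of its MANE start. The strongest of these had 84.4, 29.7 and 45.3 normalised reads in HttQ89, against 70.0, 44.6 and 28.9 in HttQ23, with the groups mixed and a log2 fold change of 0.11 ± 0.74. A second SEMA6B peak in a coding exon had a log2 fold change of −1.10 ± 0.85 from means of 14.4 ± 9.52 normalised reads in HttQ89 and 31.9 ± 19.8 in HttQ23 (SD, n = 3 each). SEMA6D, also a transmembrane semaphorin, had 17.5, 51.4 and 152 normalised reads in HttQ89 at the peak over its MANE start, against 82.7, 59.5 and 90.2 in HttQ23. HttQ89 replicates 1 and 2 were the lowest there and HttQ89 replicate 3 the highest. Further into SEMA6D, 990 bp from the MANE start, the untested peak had 0, 19.8 and 53.4 normalised reads in HttQ89, against 59.4, 55.2 and 50.8 in HttQ23. At SEMA4B the untested peak at the MANE start had 0, 23.7 and 81.5 normalised reads in HttQ89, against 146, 75.4 and 111 in HttQ23. An upstream SEMA4B peak, at position −16360 bp from that start, had 41.2, 40.5 and 114 in HttQ89, against 90.2, 23.4 and 117 in HttQ23. Both groups overlapped at each of these peaks.

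Plexins are the receptors of semaphorins and signal to small GTPases inside the growth cone. All 10 tested plexin peaks had a negative fold change, with a median of −0.49. After centring 4 of 10 were negative with a median of 0.05, and with DESeq2 scaling 7 of 10 with a median of −0.09. PLXNB2, a receptor of class 4 semaphorins, had the strongest plexin peak, over its MANE start (chr22:50307313-50307713), which is one of those with a core match. It held 72.1, 70.2 and 91.4 normalised reads in HttQ89, against 176, 88.2 and 116 in HttQ23. HttQ89 replicate 3 lay just above the lowest HttQ23 library, and the log2 fold change was −0.65 ± 0.62 (adjusted limma p = 0.818, exact permutation p = 0.2). The other 4 PLXNB2 peaks lay 7907 to 28483 bp into the gene, with means of 11.1 to 33.9 normalised reads, and only 1 of them was above 0 in every library.

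PLXND1, which binds class 3 semaphorins and is known for its role in vessels, had 5.15, 40.5 and 86.0 normalised reads in HttQ89, against 84.9, 94.5 and 74.4 in HttQ23. Replicates 1 and 2 of HttQ89 were below every HttQ23 library and replicate 3 was among them. At PLXND1 the log2 fold change was −1.60 ± 0.74 (unadjusted limma p = 0.030, adjusted p = 0.818, exact permutation p = 0.3). PLXNC1, the receptor of SEMA7A, had 48.4, 75.1 and 33.5 normalised reads in HttQ89, against 126, 114 and 23.6 in HttQ23. There the lowest value was in HttQ23 replicate 3, an order unlike that of most guidance peaks, and the fold change was −0.49 ± 0.70. At the PLXNB1 peak HttQ89 replicate 1 was at 0, and the other 2 HttQ89 libraries had 86.0 and 121 normalised reads, against 117, 146 and 91.1 in HttQ23.

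Ephrins of the A class are anchored to the membrane by a lipid and those of the B class span it. Of 12 tested ephrin peaks 11 had a negative fold change, with a median of −0.53, against 6 of 12 after centring. EFNA4 had the largest difference of the family at its peak in the first part of the gene (chr1:155063808-155064208). It had 7.21, 10.9 and 76.9 normalised reads in HttQ89, against 87.0, 66.9 and 70.9 in HttQ23. HttQ89 replicates 1 and 2 were far below all other libraries, while HttQ89 replicate 3 was second among the 6. The log2 fold change was −1.94 ± 0.78 (unadjusted limma p = 0.013, adjusted p = 0.818, exact permutation p = 0.3). Without HttQ89 replicate 3 it was −2.93, with an adjusted p of 0.0416.

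EFNB1, a B-class ephrin on the X chromosome, was the guidance peak with the highest fold change. It held 17.5, 30.6 and 54.3 normalised reads in HttQ89, against 43.5, 9.56 and 23.6 in HttQ23. The groups were mixed, and the log2 fold change of 0.49 ± 0.83 (adjusted limma p = 0.837, exact permutation p = 0.6) turned to −0.06 without HttQ23 replicate 2. EFNB2 had the strongest ephrin peak, with 86.5, 88.9 and 173 normalised reads in HttQ89, against 206, 179 and 113 in HttQ23, and the groups overlapped. The genes EFNA3, EFNA4 and EFNA1 lie next to each other on chromosome 1. Together with the readthrough EFNA4-EFNA3 they carried 7 peaks, of which 6 were tested. The EFNA3 peak with the core match had 22.7, 74.1 and 94.1 normalised reads in HttQ89, against 116, 88.2 and 59.5 in HttQ23, and the order of the libraries was mixed.

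Eph receptors are the tyrosine kinases that bind ephrins. All 10 tested Eph peaks had a negative fold change, with a median of −0.63, against 7 of 10 after centring. EPHB6, a member whose kinase domain is known to be inactive, had 22.7, 30.6 and 88.7 normalised reads in HttQ89, against 95.5, 93.5 and 105 in HttQ23. The groups did not overlap, with HttQ89 replicate 3 just under the lowest HttQ23 library. At EPHB6 the log2 fold change was −1.28 ± 0.69 (unadjusted limma p = 0.063, adjusted p = 0.818, exact permutation p = 0.1). The peak covers the MANE start on chromosome 7 (chr7:142854728-142855128).

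EPHA2 had the strongest peak among Eph receptors, with 62.8, 87.0 and 162 normalised reads in HttQ89, against 170, 132 and 124 in HttQ23. HttQ89 replicate 3 was second among the 6 libraries there. EPHB2 followed another pattern, with 177, 27.7 and 29.0 normalised reads in HttQ89, against 139, 68.0 and 16.6 in HttQ23. It was high in both libraries numbered replicate 1, and the log2 fold change was −0.05 ± 0.72. EPHA4, which held both motif forms, had 11.3, 15.8 and 74.2 normalised reads in HttQ89, against 81.7, 21.2 and 72.7 in HttQ23. HttQ89 replicate 3 was second among the 6 libraries, and the log2 fold change was −1.04 ± 0.79 (adjusted limma p = 0.818, exact permutation p = 0.3).

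Netrins are secreted proteins related to laminin. All 3 netrin peaks were tested and negative, with a median of −0.96, the lowest of the 8 families, though over 3 peaks, of which 2 were negative after centring. NTN3 had 43.2, 68.2 and 76.0 normalised reads in HttQ89, against 153, 102 and 109 in HttQ23. All HttQ89 libraries were below all HttQ23 libraries, and the gap between the groups was wider than at SEMA3F or EPHB6. The means were 62.5 ± 17.1 in HttQ89 and 121 ± 27.4 in HttQ23 (SD, n = 3 each), and the log2 fold change was −0.96 ± 0.64 (unadjusted limma p = 0.132, adjusted p = 0.818, exact permutation p = 0.1).

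NTN4, a netrin of basement membranes, had 3.09, 50.4 and 107 normalised reads in HttQ89, against 103, 113 and 77.1 in HttQ23. HttQ89 replicate 1 held almost nothing there while HttQ89 replicate 3 was second among the 6, so the log2 fold change of −1.78 ± 0.72 (unadjusted limma p = 0.014, adjusted p = 0.818, exact permutation p = 0.3) rested on the first of these. Without HttQ89 replicate 1 it was −0.39, and without HttQ89 replicate 3 it was −2.75, with an adjusted p of 0.0476. NTN1, the founding attractant of the family, had 51.5, 99.8 and 220 normalised reads in HttQ89, against 162, 152 and 112 in HttQ23. Its libraries were mixed, and the fold change of −0.42 ± 0.60 turned positive when libraries were scaled on their peaks.

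The UNC5 receptors turn a netrin signal into repulsion. All 3 tested UNC5 peaks were negative, with a median of −0.64, and 2 were so after centring. UNC5A, the strongest guidance peak (chr5:176810150-176810550), had 81.3, 84.0 and 222 normalised reads in HttQ89, against 371, 229 and 188 in HttQ23. HttQ89 replicates 1 and 2 lay far below all other libraries, and HttQ89 replicate 3 was among the HttQ23 values. The log2 fold change was −1.13 ± 0.57 (unadjusted limma p = 0.047, adjusted p = 0.818, exact permutation p = 0.2), and without HttQ89 replicate 3 it was −1.60, with an adjusted p of 0.0466. The peak of UNC5B at its MANE start also had its lowest values in HttQ89 replicates 1 and 2, with 85.5, 70.2 and 193 normalised reads in HttQ89, against 244, 143 and 126 in HttQ23.

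UNC5A, EFNA4 and NTN4 were the 3 guidance peaks that passed the adjusted threshold, all lower in HttQ89, when HttQ89 replicate 3 was left out. In that fit 514 of the 14698 peaks were called, a background of 3.5%, all of them lower. Leaving out any other library gave 0 called guidance peaks.

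Slits are large secreted repellents. Only 2 of 4 Slit peaks were tested, since an inner SLIT2 peak and the SLIT3 peak were at 0 in HttQ89 replicate 1. SLIT2 had the strongest Slit peak, over its MANE start, with 46.3, 129 and 215 normalised reads in HttQ89, against 208, 153 and 145 in HttQ23. HttQ89 replicate 1 was the lowest and HttQ89 replicate 3 the highest library, and the log2 fold change of −0.61 ± 0.59 became 0.00 without HttQ89 replicate 1. SLIT1, with the core match at its start codon, had 53.5, 28.7 and 45.3 normalised reads in HttQ89, against 97.6, 73.3 and 45.5 in HttQ23. The HttQ89 values all lay within or below the HttQ23 range, and HttQ89 replicate 1 was above HttQ23 replicate 3.

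Robos are the receptors of Slits. All 5 Robo peaks were tested and negative, with a median of −0.87, and 3 were so after centring. ROBO3, the divergent Robo known to let commissural axons cross the midline, had 3 peaks. The middle one, in a coding exon 3600 bp downstream of the MANE start (chr11:124868832-124869232), held 1.03, 17.8 and 4.53 normalised reads in HttQ89, against 22.3, 32.9 and 25.4 in HttQ23. The groups did not overlap, and here HttQ89 replicate 3 was low together with replicates 1 and 2. Its log2 fold change of −2.21 ± 0.86 was the lowest of the tested guidance peaks with all 6 libraries (unadjusted limma p = 0.010, adjusted p = 0.818, exact permutation p = 0.1). The peak is weak, at percentile 14.3 of promoter peaks, and its fold change moved to −1.43 with HttQ89 replicate 1 left out and to −3.04 with replicate 2 left out. With HttQ89 replicate 3 left out it was −2.16, and those of EFNA4 and NTN4 were lower.

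The ROBO3 peak nearest the MANE start, in an intron, had 20.6, 10.9 and 38.0 normalised reads in HttQ89, against 63.6, 24.4 and 51.7 in HttQ23. The third ROBO3 peak, 10909 bp downstream, had 39.1, 55.3 and 99.6 in HttQ89, against 71.1, 47.8 and 76.2 in HttQ23. The HttQ89 libraries overlapped those of HttQ23 at both. Their log2 fold changes were −1.04 ± 0.81 and −0.09 ± 0.69, so that the 3 ROBO3 peaks spanned most of the range of all guidance peaks, and that of the third turned positive when libraries were scaled on their peaks. ROBO1 had the strongest Robo peak, with 34.0, 54.4 and 118 normalised reads in HttQ89, against 80.6, 107 and 44.7 in HttQ23. The log2 fold change at ROBO1 was −0.27 ± 0.68, and it too turned positive under such scaling. ROBO3, NTN3 and SEMA3F are on the study's own list of promoters with reduced YY1, which was chosen on these same libraries, so their direction here is not independent evidence.

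At the 4 peaks whose groups did not overlap, the fold change kept its sign when the libraries were scaled on their peaks in 4 ways (median centring, quantile normalisation, TMM and DESeq2). It then lay between −1.85 and −1.21 at the middle ROBO3 peak and between −0.80 and −0.75 at EPHB6. At NTN3 it lay between −0.47 and −0.43, and at SEMA3F between −0.23 and −0.18. Under centring, quantile normalisation and TMM, the groups still did not overlap at EPHB6, but they overlapped at that ROBO3 peak, NTN3 and SEMA3F.

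**Figure D5:**
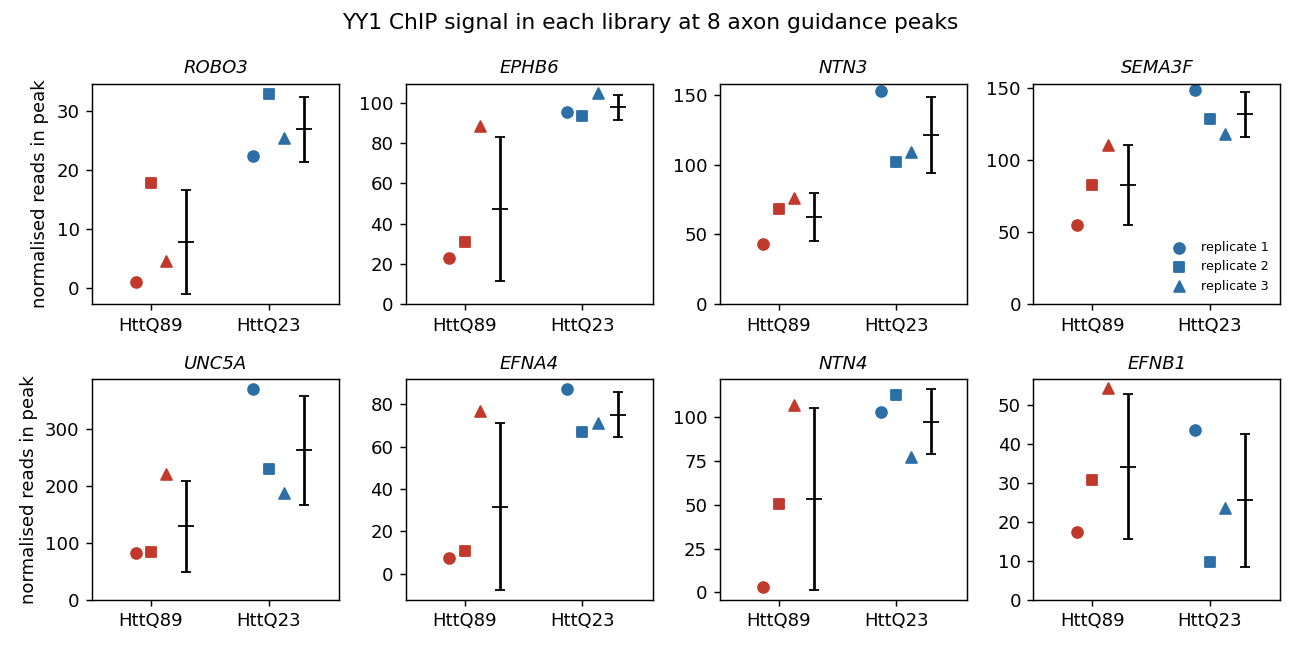
Normalised reads (y axis) in each library at 8 guidance peaks, HttQ89 left and HttQ23 right, with one marker shape per replicate number; black bars are the mean and SD of 3 libraries. At ROBO3 (the middle of its 3 peaks), EPHB6, NTN3 and SEMA3F the groups do not overlap. At UNC5A, EFNA4 and NTN4 the triangle of HttQ89 replicate 3 lies among the HttQ23 values, and at EFNB1 the groups are mixed.

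Genes that work with the guidance ligands and receptors were counted from 2 lists of the same pathways, for which promoter peaks as a whole had a median log2 fold change of −0.51. Each gene of both lists entered with its strongest tested promoter peak, while the backgrounds and the guidance set hold every peak. The median mean of these peaks was 87.9 normalised reads for co-receptors and adhesion partners and 121 for transducers, against 81.2 over tested promoter peaks. Of 31 listed co-receptors and adhesion partners, 25 had a promoter peak and 22 were tested. None was called, and 1 was lower at an unadjusted limma p under 0.05, against a background of 4.02%. The fold change was negative at 18 of 22, against 85.5% of tested promoter peaks, with a median of −0.46. RGMB, a ligand of the netrin receptor relative neogenin, had the strongest of these, with 94.7, 130 and 217 normalised reads in HttQ89, against 252, 226 and 117 in HttQ23, and the groups overlapped. The lowest p was at RTN4, the gene of the myelin inhibitor Nogo, with 51.5, 3.95 and 154 normalised reads in HttQ89, against 122, 99.8 and 98.9 in HttQ23. There HttQ89 held both the lowest and the highest library.

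Of 60 listed intracellular transducers, 55 had a promoter peak and 49 were tested. None was called, and 5 were lower at an unadjusted limma p under 0.05, against the same background of 4.02%. The fold change was negative at 47 of 49, against 85.5% of tested promoter peaks, with a median of −0.53. RAC1, a small GTPase downstream of plexins, had the strongest peak, with 561, 337 and 982 normalised reads in HttQ89, against 797, 433 and 876 in HttQ23. VAV3, an exchange factor for such GTPases, had the lowest p, with 3.09, 55.3 and 130 normalised reads in HttQ89, against 127, 131 and 79.7 in HttQ23. HttQ89 replicate 1 was low at VAV3 while HttQ89 replicate 3 lay among the HttQ23 values, the order also seen at NTN4 and PLXND1.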

How the data were processed

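YY1 chromatin immunoprecipitation libraries of SK-N-MC cells were analysed, 3 per group, and the 3 input libraries were not analysed here. The study's methods and the submitters' processing notes name FastQC 0.11.8, trimming by cutadapt 3.7, alignment to GRCh38 by Bowtie2 2.4.1, a choice of unique reads, peak calling by MACS3 3.0.1 against input, and annotation by ChIPseeker 1.38.0. Peaks may have been called on single or on pooled libraries, which is not stated. The unit of the deposited table is a normalised signal, namely reads per peak that the authors scaled to sequencing depth with DiffBind. In every library 100% of these values were whole multiples of what 1 read is worth, within 0.1 reads, so reads were recovered by division. Whether input reads had been subtracted from the values before scaling is not stated, and whole multiples do not show it. On these reads edgeR 4.0.16 and DESeq2 1.42.0 called 0 peaks.

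Peaks above 0 in all 6 libraries were tested with limma 3.58.1 in R 4.3.3 (trend, two-sided) on log2(value + 1), HttQ89 minus HttQ23, with Benjamini-Hochberg adjustment over the 14698 peaks. limma estimated no variance for single peaks beyond its trend with peak strength, so standard errors follow strength. The study calls the 3 libraries of a group independent biological replicates, without saying which cultures or transfections they came from. A filter that asks for values above 0 leaves out peaks lost in HttQ89 replicate 1. Depth scaling keeps a difference in immunoprecipitation yield between libraries. GENCODE v44 held every transcript of the table, with distances matching to 1 bp. Motif letters were searched on both strands. The fit was also run on simulated counts, drawn without library-wide shifts or added zeros. That run therefore does not show how the fit behaves on libraries as unequal as these.

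The members and gene lists were chosen with earlier results of these data known. Peaks were named by a rule: the strongest of each family, those whose groups did not overlap, the 3 with the lowest p in each direction, those on the study's list, those at 0 in a library, those with motif letters and those of genes with several peaks. From the other lists the rule took the strongest peak and that with the lowest p. Peaks of SEMA5B, PLXNC1 and EPHB2 were chosen after their values were seen. Alternatives covered the pseudocount (5), low-value filters, library scaling, the test, the replicate block and each library left out.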

Additional observations from a re-analysis of the deposited data

How the results depend on the processing

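The count of called peaks was 0 for all peaks and for guidance peaks, and leaving out 1 library at a time gave 0 to 514 peaks and 0 to 3 guidance peaks, with those above 0 coming from the fit without HttQ89 replicate 3. With a replicate block 1 peak and 0 guidance peaks were called. Deviations of same-numbered libraries correlated at 0.04, 0.39 and 0.15, and those of differently numbered libraries at −0.29 to 0.13. Whether the replicate numbers pair the libraries was not tested. Guidance peaks whose groups did not overlap numbered 4, against 7 with median centring or quantile normalisation (4 lower and 3 higher in HttQ89 in each, with 3.25% and 3.57% of all tested peaks lower and 3.02% and 2.77% higher) and 4 to 33 with 1 library left out. With fewer libraries groups fail to overlap more often by chance, and the same holds over all tested peaks. The 33 (52.4%) came without HttQ89 replicate 3, where 48.7% of all tested peaks were lower, 18 (28.6%) without replicate 3 of HttQ23, against 15.0%, and 8 (12.7%) without its replicate 2, against 10.0%. The guidance median of −0.61 kept its sign, at −0.07 with median centring, −0.04 with quantile normalisation, −0.12 with TMM, −0.06 with DESeq2, −0.47 with edgeR and −0.96 to −0.26 with 1 library left out. Negative guidance peaks then numbered 37 with centring and 40 with quantile, TMM or DESeq2 scaling, of 63. Without HttQ89 replicate 2 the guidance median lay 0.21 below the promoter median, and over all libraries left out in turn the difference was −0.21 to −0.01, against −0.10.

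Over 283 comparisons at 19 named peaks, 253 kept direction and call, 3 gained a call and 27 changed sign. With median centring, quantile normalisation, TMM and DESeq2 in that order, the log2 fold change was 0.45, 0.44, 0.40 and 0.41 at the third ROBO3 peak, 0.27, 0.31, 0.22 and 0.15 at ROBO1 and 0.11, 0.12, 0.07 and 0.12 at NTN1. At SEMA3C it was 0.09 with centring, 0.04 with TMM and 0.08 with DESeq2, and at SEMA6A-AS2 −0.12 with edgeR against 0.14. With 1 library left out it spanned −0.45 to 0.22 at the third ROBO3 peak, −0.75 to 0.13 at ROBO1, −0.96 to 0.08 at NTN1, −1.09 to 0.00 at SLIT2, −0.06 to 0.98 at EFNB1, −0.29 to 0.45 at the strongest SEMA6B peak and −0.53 to 0.70 at SEMA6A-AS2. The cause was not tested. Recovered reads within the peaks were 927910 to 2344649 per library, and these do not measure sequencing depth. In the depth scaling 1 read was worth 0.876 to 1.06 normalised reads, and what depth limits was not tested.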
